A study of Mus musculus with 4 samples.

Results

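The genes described here are the zinc finger genes of the mouse that carry a Zfp symbol with a number and lie close to another such gene. A gene was taken as clustered if it was protein-coding, lay on an autosome and had the 5′ end of another Zfp gene within 100 kb of its own 5′ end. By this rule 180 of 337 autosomal Zfp genes were clustered, or 53.4%, and 157 lay outside clusters. The GENCODE M1 annotation of mouse genome build mm9 held 21418 autosomal coding genes in all. The clustered genes formed 50 clusters on 12 chromosomes, of which 26 were pairs, 13 had 3 to 4 members and 11 had 5 or more. Chromosome 7 alone held 67 members (37.2%). The 180 annotation entries carried 176 distinct symbols. Zfp664, Zfp319, Zfp708 and Zfp738 were each listed 2 times, and for Zfp664 and Zfp319 the 2 entries made up the whole cluster.

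RIF1 is a large nuclear protein known for its part in replication timing and in DNA break repair. Its occupancy was measured by chromatin immunoprecipitation with sequencing (ChIP-seq) in B cells from mouse spleen, which had been stimulated with LPS at 5 µg/ml and IL-4 at 5 ng/ml and were collected at 72 h. There were 2 samples from Rif1FH/FH mice, whose RIF1 carries a FLAG-HA tag, and 2 from C57BL/6 (Rif1WT/WT) mice with untagged RIF1, which served as the negative control. RIF1 was precipitated through its HA tag from chromatin of 200 to 600 bp, and the tagged animals were kept on the same C57BL/6 background. The labels do not say whether the samples of a group came from separate mice. The antibody label of the samples names the CD43 beads used for cell isolation instead, and the protocol was followed here. The deposited list held 16332 intervals from the Rif1FH samples with positions only, so read depth, enrichment and the spread between samples are unknown, and Rif1FH was not compared with Rif1WT. A list of intervals also cannot show whether the cells expressed B cell markers, or whether any Zfp gene was transcribed.

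The intervals fell into 16043 narrow ones, with a median of 1365 bp and a largest width of 14827 bp, and 289 wide ones of 90 kb or more. Narrow intervals are called peaks here. Wide intervals were taken to be the RIF1-associated domains (RADs) of the study, in which enrichment is weaker and extends over long stretches. Each gene was asked whether it overlapped a wide interval, and whether a peak overlapped the window of 1 kb on each side of its 5′ end.

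Most proteins with a Zfp symbol are C2H2 zinc finger proteins, in which each finger is a short fold held by a zinc ion and an array of fingers reads a DNA sequence. Many also carry a KRAB domain, which recruits the corepressor TRIM28 and through it the histone methyltransferase SETDB1, so that the bound DNA is marked by H3K9 methylation. Such genes multiplied by local duplication, sit side by side in the genome, and are best known for the silencing of transposable elements and for the control of imprinted genes. The symbol fitted the proteins of most members, as only 4 of the 180 translated coding sequences held fewer than 3 C2H2 fingers and the median member held 11 fingers (range 0 to 33).

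Promoter sequences of 7 members are printed as examples of genes with a peak, without an interval and in a wide interval, and they need not be typical of their class. The first 3 are the members whose 5′ end lay nearest to the middle of a peak, Zfp956 and Zfp583, and Zfp78, the member without any interval that lay nearest to Zfp583 in its cluster. The other 4 were chosen after their values were seen. Zfp943 and Zfp758 belong to different clusters and each shares a peak with a neighbour. Zfp809, which represses endogenous retroviruses, and Zfp568, which represses a placental Igf2 transcript, lay inside wide intervals. Each window runs 5′ to 3′ on the strand of the gene, from 250 bases before the annotated 5′ end to 50 after it, and was read from mm9. Capitals mark matches on either strand to the short motifs searched below, of which only the SP1 box (GGGCGG), the binding site of ETS factors (CCGGAA) and the box bound by the factor NF-Y (CCAAT) occurred in these windows. In the order printed, the windows were chr6:47903139-47903438 (plus strand), chr7:6282838-6283137 (minus), chr7:6323818-6324117 (plus), chr17:22099269-22099568 (plus), chr17:22498170-22498469 (plus), chr9:22030024-22030323 (plus) and chr7:30768724-30769023 (plus).
Zfp956: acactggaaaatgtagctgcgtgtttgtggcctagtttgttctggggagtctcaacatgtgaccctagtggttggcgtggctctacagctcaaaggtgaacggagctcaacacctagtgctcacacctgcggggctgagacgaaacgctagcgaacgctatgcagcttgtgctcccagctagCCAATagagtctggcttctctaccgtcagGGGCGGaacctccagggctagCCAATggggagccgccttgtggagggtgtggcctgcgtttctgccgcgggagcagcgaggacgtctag
Zfp583: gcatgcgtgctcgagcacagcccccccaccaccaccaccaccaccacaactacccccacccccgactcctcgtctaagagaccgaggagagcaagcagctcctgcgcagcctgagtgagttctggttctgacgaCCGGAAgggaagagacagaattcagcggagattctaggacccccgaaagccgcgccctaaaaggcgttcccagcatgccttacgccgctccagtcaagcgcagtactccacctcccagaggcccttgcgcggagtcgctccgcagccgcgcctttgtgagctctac
Zfp78: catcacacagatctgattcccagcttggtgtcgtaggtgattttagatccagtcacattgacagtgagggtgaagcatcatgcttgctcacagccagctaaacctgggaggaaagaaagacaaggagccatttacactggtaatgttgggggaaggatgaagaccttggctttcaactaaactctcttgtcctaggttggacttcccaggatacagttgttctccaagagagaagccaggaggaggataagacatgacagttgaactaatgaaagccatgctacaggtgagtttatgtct
Zfp943: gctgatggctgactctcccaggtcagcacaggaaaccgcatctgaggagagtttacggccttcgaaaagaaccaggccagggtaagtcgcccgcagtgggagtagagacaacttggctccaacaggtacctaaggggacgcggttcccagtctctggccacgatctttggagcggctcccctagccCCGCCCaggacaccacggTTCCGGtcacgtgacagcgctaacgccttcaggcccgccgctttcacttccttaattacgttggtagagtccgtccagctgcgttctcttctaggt
Zfp758: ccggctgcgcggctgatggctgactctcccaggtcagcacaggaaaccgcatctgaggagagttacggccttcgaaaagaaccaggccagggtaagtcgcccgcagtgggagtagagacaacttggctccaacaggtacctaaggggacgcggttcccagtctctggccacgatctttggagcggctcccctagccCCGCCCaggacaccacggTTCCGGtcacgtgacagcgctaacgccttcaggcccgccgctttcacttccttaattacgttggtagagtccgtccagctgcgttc
Zfp809: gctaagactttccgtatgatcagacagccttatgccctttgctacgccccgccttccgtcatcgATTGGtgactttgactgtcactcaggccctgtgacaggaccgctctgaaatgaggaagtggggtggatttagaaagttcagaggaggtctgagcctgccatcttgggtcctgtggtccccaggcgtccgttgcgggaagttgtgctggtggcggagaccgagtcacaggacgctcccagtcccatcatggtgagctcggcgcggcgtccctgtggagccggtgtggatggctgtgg
Zfp568: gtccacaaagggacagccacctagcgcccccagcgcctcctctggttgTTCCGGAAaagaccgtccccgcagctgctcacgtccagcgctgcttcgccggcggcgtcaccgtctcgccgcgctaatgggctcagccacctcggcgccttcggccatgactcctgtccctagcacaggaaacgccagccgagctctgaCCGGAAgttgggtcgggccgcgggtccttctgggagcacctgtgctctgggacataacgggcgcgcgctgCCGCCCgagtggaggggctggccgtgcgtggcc

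Among these windows, that of Zfp78 had the lowest CpG content, with 1 CpG and a CpG ratio of 0.06 (the observed count over that expected from its C and G content). The window of Zfp956, which lay under a peak, had 16 CpGs and a ratio of 0.64. Zfp568 had the most, with 32 CpGs.

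To ask in which form RIF1 was listed at clustered zinc finger genes, the share of genes in wide intervals was taken first. Wide intervals overlapped 126 of the 180 clustered genes, or 70.0% (95% Wilson interval 62.9 to 76.2%), against 23.6% of all autosomal coding genes. Outside clusters, 49 of 157 Zfp genes overlapped a wide interval, or 31.2% (24.5 to 38.8%). Of the 39 other coding genes that start inside the cluster spans, 37 overlapped a wide interval (94.9%, 83.1 to 98.6%). All 37 started in clusters whose members were all wide, and the others in clusters without a wide interval. That share therefore follows from which clusters hold other genes. Of these 39, 5 were KRAB zinc finger genes under other names, and all 5 were wide. Of the coding genes with another coding 5′ end within 100 kb, which are most coding genes, 25.6% were in wide intervals. All Wilson intervals cover counting error only. Neighbours in a cluster share an interval, so the genes are not independent, and no test of these differences was made.

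For peaks at 5′ ends, the share was lower in clustered genes than in Zfp genes outside clusters. A peak lay at the 5′ end of 43 of the 180 clustered genes, or 23.9% (18.2 to 30.6%), against 32.2% of all coding genes. Outside clusters the count was 73 of 157 Zfp genes, or 46.5% (38.9 to 54.3%). No clustered gene had a peak as well as a wide interval, where 0.392% of all coding genes had both (the count of 0 among 180 has an upper Wilson bound of 2.09%). By the study's definition, peaks within RADs were not kept as peaks, so a gene in a wide interval could hardly have one. No interval of either kind, over the gene or within 1 kb of its 5′ end, was listed for 10 clustered genes, or 5.56% (3.05 to 9.92%), against 39.1% of all coding genes and 20.4% of the Zfp genes outside clusters.

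Since the wide intervals take away genes that could have a peak, the count was repeated over the genes without one. Here a peak lay within 1 kb of the 5′ end in 43 of 54 clustered genes, or 79.6% (67.1 to 88.2%), against 41.8% of all coding genes without a wide interval. For the Zfp genes outside clusters it was 73 of 108, or 67.6% (58.3 to 75.7%), and these intervals overlap. The order of clustered and other Zfp genes thus turned around with the denominator, and either share was above that of coding genes at large.

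**Figure D1:**
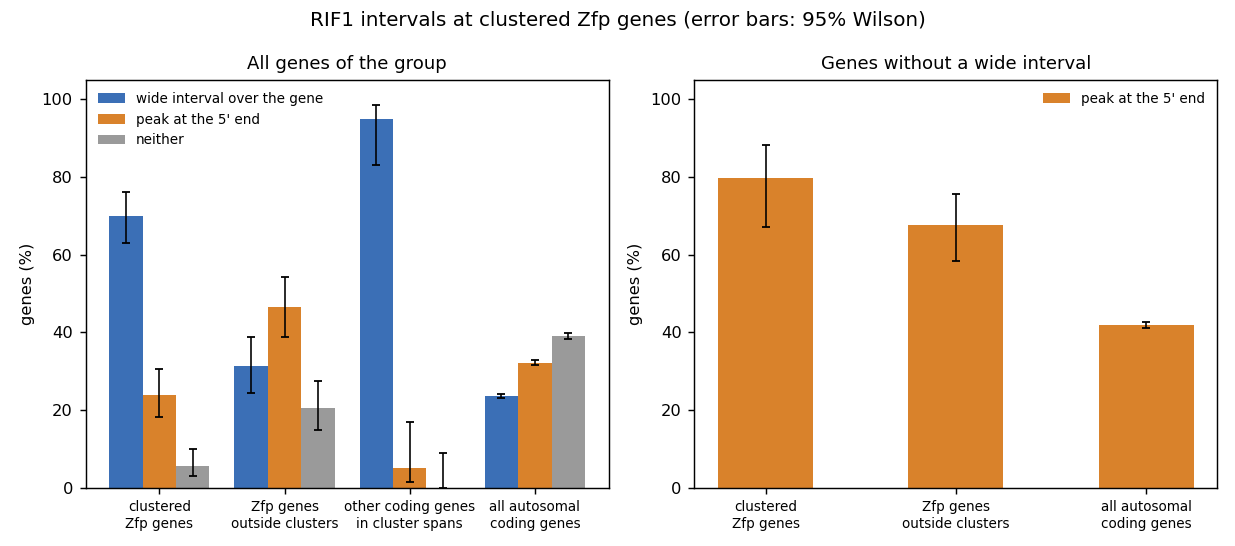
Share of genes (%, bars, with 95% Wilson intervals) that overlapped a wide interval, had a peak within 1 kb of the 5′ end, or had no interval of either kind over the gene or within 1 kb of its 5′ end, in 4 groups of genes (left), and with a 5′ peak among genes without a wide interval in 3 of the groups (right). Clustered Zfp genes had a wide interval in 70.0% of cases, and 79.6% of those without one had a peak at the 5′ end.

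The share in wide intervals was higher in larger clusters. It was 24 of 52 members (46.2%, 33.3 to 59.5%) in pairs, 32 of 45 (71.1%, 56.6 to 82.3%) in clusters of 3 to 4, and 70 of 83 (84.3%, 75 to 90.6%) in clusters of 5 or more. Members of a cluster share an interval, so clusters were also counted. Every member was wide in 12 of 26 pairs, 9 of 13 clusters of 3 to 4 and 8 of 11 clusters of 5 or more. Of these 11 clusters, 2 were wide in part. By cluster, the 2 larger sizes thus differed little. The 5′ peak share over all members went the other way, with 42.3%, 22.2% and 13.3% from pairs to the largest clusters. Among members without a wide interval this peak share hardly moved with cluster size, with 22 of 28 (78.6%), 10 of 13 (76.9%) and 11 of 13 (84.6%).

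Clusters were nearly always in 1 state. In 29 clusters, with 121 members, every member was in a wide interval, and in 19 clusters, with 47 members, no member was. Of these 47 members, 37 had a peak at the 5′ end, and in 11 of the 19 clusters every member had one. Only 2 clusters were mixed. Among neighbouring clustered genes, 128 of 130 pairs within a cluster were alike in being inside or outside a wide interval (98.5%), but neighbouring coding genes in general were so in 98.3% of pairs. The GC content of the clusters had a median of 43.0% (39.8 to 51.2%) where all members were wide and of 44.3% (37.7 to 54.8%) where none was. These ranges overlap, and the autosomes as a whole have 41.9%.

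**Figure D2:**
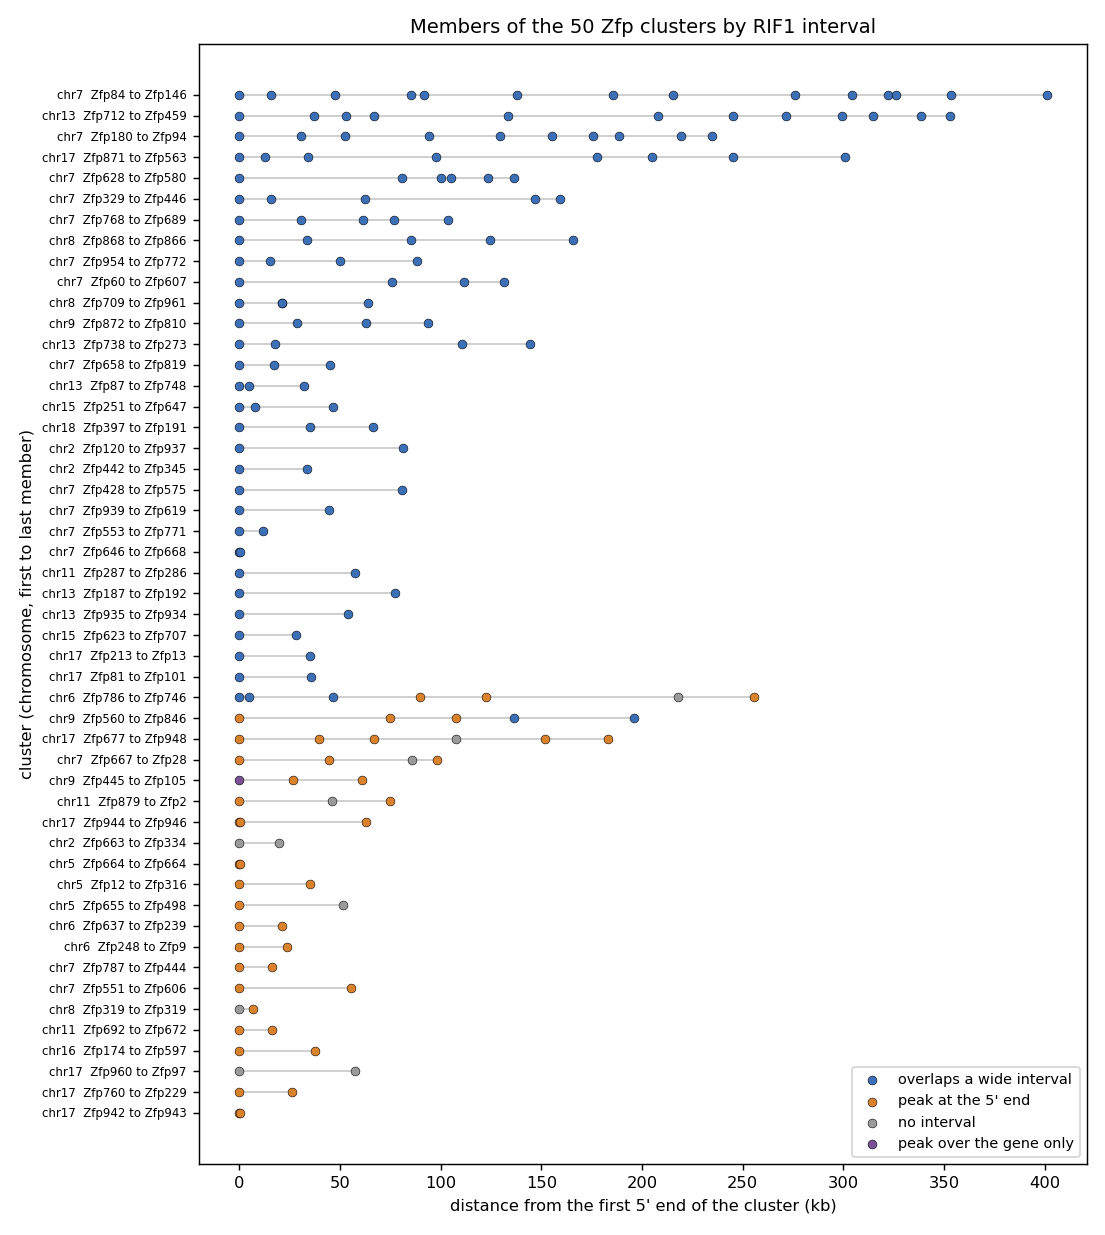
Each row is 1 of the 50 clusters and each point a member at the distance of its 5′ end from the first 5′ end of the cluster (kb), coloured by the interval it overlapped. Points of 1 colour fill most rows: 29 clusters were wide throughout, 19 had no wide interval, and 2 held both kinds.

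The 126 members in wide intervals lay in only 22 of the 285 autosomal wide intervals (7.72%), and 123 of them lay entirely inside. The 5 intervals with the most members took in 64 members (50.8%), 9 intervals held 5 or more, and none held a single one. By the rule each member has another within 100 kb, so a wide interval with a single member could hardly occur. The 22 intervals had a median width of 847 kb, against 576 kb for those without a member. A longer interval is more likely to take in a gene, so these widths are description only. Wide intervals covered 9.26% of the autosomal sequence.

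The interval with the most members was chr13:65300001-68040000, which was 2740 kb wide. It took in 19 members from Zfp712 to Zfp273, which were 35.8% of its 53 coding genes and came from 3 clusters. The largest of these, Zfp712 to Zfp459, had 12 members over 375 kb, beginning with Zfp712, the 2 entries of Zfp708 and Zfp759. The other 2 were Zfp87, Zfp58 and Zfp748, and Zfp738 with Zfp493 and Zfp273. Every clustered gene on chromosome 13 was wide, 23 of 23, where 28.5% of all coding genes of that chromosome were. The remaining 4 were the pairs of Zfp187 with Zfp192 and of Zfp935 with Zfp934.

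On chromosome 7, 59 of 67 members were wide, against 37.2% of the coding genes of the chromosome, which was the highest share of any autosome. The cluster Zfp84 to Zfp146 was the largest of all, with 14 members over 401 kb beginning with Zfp84, Zfp30 and Zfp790. It lay whole in chr7:30540001-32022000 (1482 kb). The 10 members from Zfp180 to Zfp94, which begin with Zfp180, Zfp112 and Zfp235, and the pair of Zfp428 and Zfp575 lay together in chr7:24858001-26694000 (1836 kb). A further 9 members, namely the 5 from Zfp768 to Zfp689 and the pairs of Zfp553 with Zfp771 and Zfp646 with Zfp668, lay in chr7:133340001-135400000 (2060 kb). The 6 from Zfp628 to Zfp580, with Zfp579 and Zfp524 after Zfp628, lay in chr7:4356001-5112000 (756 kb). The 5 from Zfp329 to Zfp446, with Zfp110 and Zfp128 after Zfp329, lay in chr7:13320001-13662000 (342 kb). That last interval also covered Trim28, the gene for the KRAB corepressor, at chr7:13609501-13616384. The smaller clusters of chromosome 7 in wide intervals were Zfp954, Zfp773, Zfp418 and Zfp772, then Zfp60, Zfp626, Zfp59 and Zfp607, then Zfp658, Zfp719 and Zfp819, and the pair of Zfp939 and Zfp619.

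The remaining wide members were spread over 8 chromosomes. On chromosome 17 the 8 members from Zfp871 to Zfp563, which begin with Zfp871, Zfp811 and Zfp799, and the pair of Zfp81 and Zfp101 lay in chr17:31626001-36468000. This interval was 4842 kb wide and held 212 coding genes, so that its 10 members were 4.72% of its genes. Zfp213 and Zfp13 lay in another. On chromosome 8 the 5 members from Zfp868 to Zfp866, with Zfp964 and Zfp869 after Zfp868, and the 4 from Zfp709 to Zfp961, with Zfp882 and Zfp617, lay in chr8:72140001-74900000 (2760 kb). Part of Zfp868 lay outside that interval. On chromosome 9, Zfp872, Zfp809, Zfp599 and Zfp810 lay in chr9:20320001-22140000 (1820 kb) together with Zfp846 and part of Zfp266. Smaller groups were Zfp120, Zfp937, Zfp442 and Zfp345 on chromosome 2, Zfp287 and Zfp286 on chromosome 11, Zfp623, Zfp707, Zfp251, Zfp7 and Zfp647 on chromosome 15, Zfp397, Zfp35 and Zfp191 on chromosome 18, and Zfp786, Zfp398 and Zfp282 on chromosome 6.

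The wide share differed between chromosomes. All 5 members on chromosome 15 and all 3 on chromosome 18 were wide, as were 9 of 11 on chromosome 8. None of the 6 members on chromosome 5 and neither of the 2 on chromosome 16 was. Chromosome 17 held 27 members, of which 12 were wide and 12 had a 5′ peak. Since all members of a stretch share 1 interval, the number of independent stretches behind each share is small. Without chromosome 7 the wide share was 59.3% (67 of 113) among clustered genes and 27.5% (38 of 138) among Zfp genes outside clusters.

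**Figure D3:**
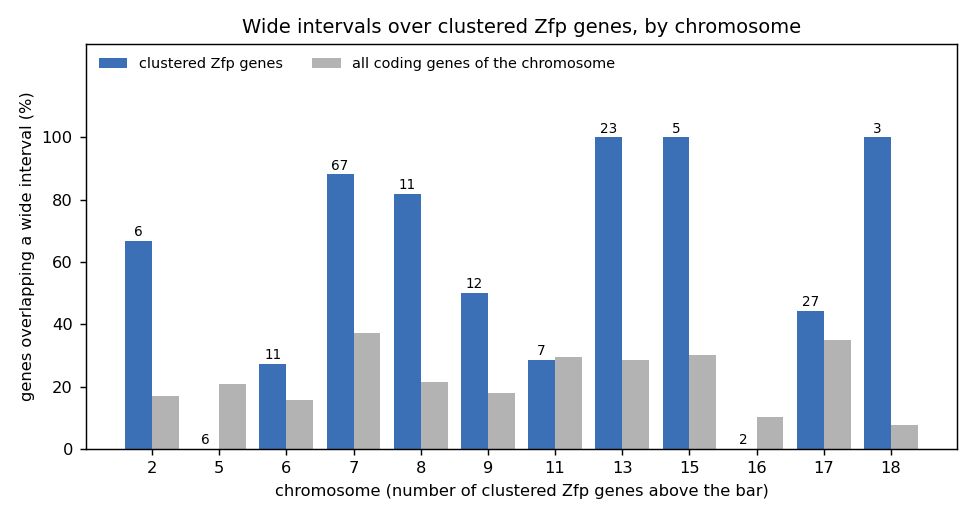
Share of genes (%) that overlapped a wide interval on each of the 12 chromosomes with clusters, for clustered Zfp genes (blue, with their number above the bar) and all coding genes of the chromosome (grey). The clustered genes were at 100% on chromosomes 13, 15 and 18 and at 0% on chromosomes 5 and 16.

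Both mixed clusters were crossed by the edge of a wide interval. On chromosome 6 the cluster Zfp786 to Zfp746 spans 267 kb with 7 members. The interval chr6:47699927-47840000 covered Zfp786 and Zfp398 and overlapped part of Zfp282, and these were 3 of its 4 coding genes. Beyond its end the next members, Zfp212 and Zfp956, had a peak at the 5′ end, and their 5′ ends lay 30.5 and 63.4 kb from the interval. Zfp777 had no interval, and Zfp746 (PARIS, a substrate of the ubiquitin ligase parkin) had a peak. On chromosome 9 the order was reversed along the 250 kb cluster Zfp560 to Zfp846. Zfp560, Zfp26 and Zfp426 had a peak at the 5′ end, at 130, 55.4 and 22.8 kb from the wide interval. That interval overlapped part of Zfp266 and covered Zfp846. Of the 7 members of the 2 clusters outside the wide intervals, 6 thus had a 5′ peak. That is near the share of all members without a wide interval, 43 of 54 (79.6%), which include these 7.

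Of the clusters with 5 or more members, Zfp677 to Zfp948 on chromosome 17 was the only one without a wide interval. It spans 205 kb, and the nearest wide interval lay 1956 kb from Zfp948 and 2139 kb from Zfp677. Peaks lay at the 5′ ends of Zfp677, Zfp54, Zfp51, Zfp52 and Zfp948, and Zfp53 had none. Each of these 5 had a peak of its own.

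The 43 members with a 5′ peak were served by 40 distinct peaks. The peaks had a median width of 1732 bp (quartiles 1418 and 2100, range 738 to 4625 bp), close to 1650 bp at Zfp genes outside clusters. Nearly all of them lay across the start of the gene, as 40 of the 43 covered the 5′ end base itself (93.0%) and 31 had their midpoint within 500 bp. The midpoint lay at a median of 33 bp downstream of the 5′ end (quartiles −208 and 179 bp). For 5′ peaks of all coding genes the median offset was 40 bp (−236 and 316 bp) and the median width 1602 bp. Only peaks that reach 1 kb on either side of the 5′ end were taken, so nearness to it is in part given by the rule. In members the midpoint was upstream in 19 and downstream in 24. By the annotation it fell outside the gene in 19, in an exon in 15 and in an intron in 9.

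The 15 members with the nearest peak midpoint lay on 7 chromosomes. At Zfp956 the peak chr6:47902389-47904392 had its midpoint 1 bp from the 5′ end, and at Zfp583 the peak chr7:6281987-6283774 had it at 7 bp. Zfp787 followed with −20 bp (upstream), Zfp606 with 33, Zfp28 with −34, Zfp946 with 35 and Zfp655 with 36 bp. Zfp212 lay at 50, Zfp637 at −50, Zfp26 at −61, Zfp248 at 76 and Zfp105 at 96 bp. The last were Zfp51 at −109 bp, Zfp174, which carries a SCAN domain, at 112 bp, and Zfp319 at −132 bp. The offsets of these 15 are small beside the width of the peaks, which was 867 bp at Zfp51 and 3090 bp at Zfp606.

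The widest peak was at Zfp667, chr7:6234256-6238880, with 4625 bp and a midpoint offset of −1613 bp, which is upstream. Zfp444 (3642 bp, chr7:6121718-6125359), Zfp606 (3090 bp, chr7:13062131-13065220), Zfp52 (2654 bp, chr17:21670898-21673551) and Zfp692 (2532 bp, chr11:58119925-58122456) followed. Of these 5 members 3 lie on chromosome 7, in clusters that no wide interval reached. Members with 2 peaks over the gene were Zfp606, Zfp597, Zfp942 and Zfp758, and both peaks of Zfp758 overlapped the window at its 5′ end. Zfp445, a KRAB zinc finger protein known for the maintenance of imprints, was the only member with a peak over the gene and none at its 5′ end, and was picked out after its values were seen. Its nearest peak lay 3.27 kb from the 5′ end.

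**Figure D4:**
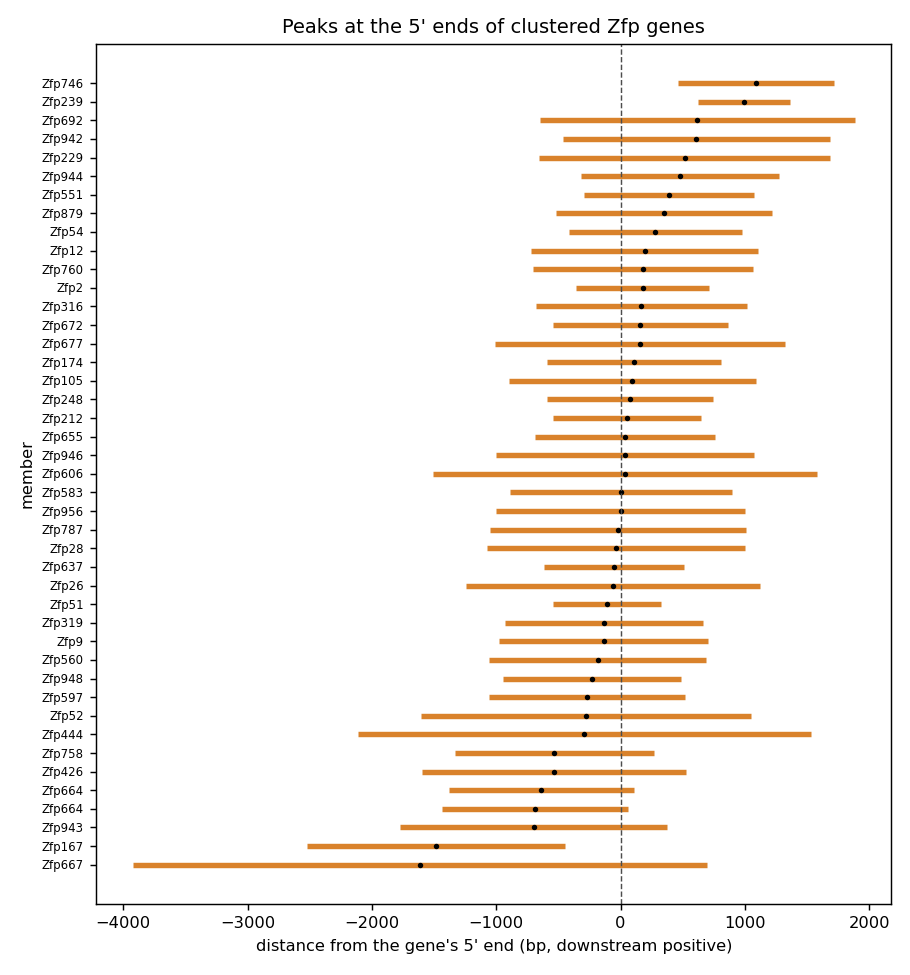
Each bar is the peak at the 5′ end of 1 of the 43 members, drawn from its start to its end relative to the annotated 5′ end of the gene (bp, downstream positive), with the midpoint as a dot. Bars of 40 members cross the 5′ end at 0, and the bar of Zfp667 reaches farthest upstream.

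Of the 40 peaks, 3 served 2 annotation entries each, and 2 of these joined different genes. Zfp942 and Zfp943 start 88 bp apart on opposite strands under chr17:22097744-22099896 (2153 bp). Zfp944 and Zfp758 start 53 bp apart on opposite strands under chr17:22497089-22498688 (1600 bp). The third was at Zfp664, whose 2 entries start 52 bp apart. The list cannot show to which of 2 such genes a peak belongs.

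The promoter windows of these head-to-head pairs were nearly the same. The 300-base windows of Zfp943 and Zfp758, printed above, lie 399 kb apart and were identical at 289 of 289 aligned bases, a count that leaves out gaps, and the windows differ by inserted bases. Those of Zfp942 and Zfp944 were identical at 274 of 275. All 4 genes had a peak, and all carry the KRAB pattern. Among all 16105 pairs of members whose windows did not overlap, 10 pairs were at least 90% identical over at least 200 aligned bases, a limit chosen after the values were seen. In all 10 pairs both members were in the same class, but the pairs are not separate. Zfp626, Zfp59 and Zfp607 were each paired with the other members of that set, and the 2 pairs with peaks rest on the same shared peaks. Of neighbouring clustered genes in general, 98.5% of pairs were alike in being inside or outside a wide interval. The 10 pairs were 7 with both members wide, such as Zfp626 and Zfp607 on chromosome 7 (97.6%), 2 with a peak at both, and Zfp960 and Zfp97 with no interval at either (94.5%). All 10 pairs lay on the same chromosome, and 7 in the same cluster, so likeness of sequence and nearness cannot be told apart. Reads that fit both copies were not kept by the authors, so such copies also share the loss of reads.

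Of the 10 members without any interval, some lay close to a peak that fell outside the window. The nearest peak was 1.82 kb from the 5′ end of Zfp53 and 1.93 kb from that of Zfp498. It was 6.02 kb away at the short entry of Zfp319, whose other entry, 6.69 kb from it, had a peak, and 6.73 kb away at Zfp78. The others were farther off, with 23.3 kb at Zfp960, 27.8 kb at Zfp454, 36 kb at Zfp777, and 80.5 to 100 kb at Zfp663, Zfp97 and Zfp334. These 10 were named after their values were seen, save Zfp319, Zfp777 and Zfp78.

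Because only uniquely aligned reads were kept, the share of 31-base words around each 5′ end (2001 bp) that occur a single time in the genome was counted. In Zfp97 it was 0.101% and in Zfp960 48.0%, so that reads there may have been lost. Words are not reads, whose length and allowed mismatches also count, so the loss of reads was not tested. In the other 8 members without an interval the share of words found once was 71.5% or more. The median of this share was 95.5% in wide members and 98.5% in members with a 5′ peak. Among the 151 members with at least 75% of words found once, 68.9% were wide, 25.8% had a 5′ peak and 4.64% had neither, close to the shares over all members.

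The promoter windows of members differed in composition between the classes. The median GC content was 58.0% (quartiles 53.5 and 63.7%) in the 43 members with a 5′ peak, 51.3% (47.4 and 56.9%) in the 126 wide members and 49.8% (47.0 and 50.8%) in the 10 without an interval. The CpG ratio had the same order, with medians of 0.69, 0.53 and 0.31. Coding genes in general had this order too, with GC medians of 61.0, 56.7 and 48.3% and CpG ratios of 0.78, 0.59 and 0.25. Members with a peak or a wide interval thus had a lower median GC content than all coding genes of the same class. The classes overlapped widely, and wide members ran from 35.7 to 75.7% GC.

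**Figure D5:**
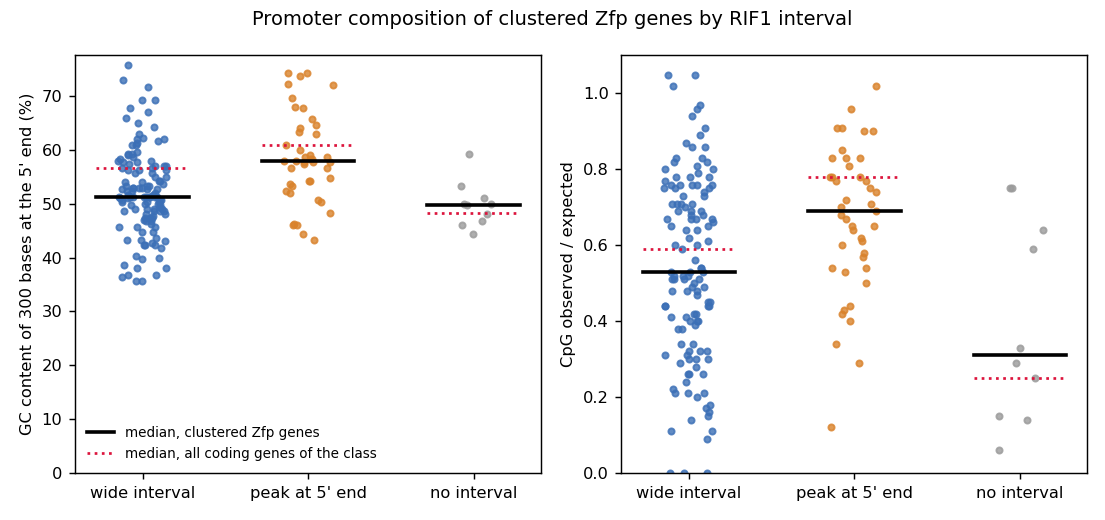
GC content (%, left) and CpG ratio (observed over expected, right) of the 300 bases at the 5′ end of each clustered Zfp gene, by the interval it overlapped, with the median of members (black line) and of all coding genes of the class (dotted red line). Points of the 43 members with a 5′ peak lie higher on average (medians 58.0% and 0.69) than those of wide members (51.3% and 0.53), with wide overlap.

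The windows of all genes were searched on both strands for 8 short motifs of promoters. The SP1 box was taken as GGGCGG and the site of ETS factors as CCGGAA. The site of the factor NRF1 was taken as GCGCATGCG, the cyclic AMP response element (CRE) as TGACGTCA, the site of YY1 as AAGATGGCG and that of ZNF143 as ACTACAATT. The box of the factor NF-Y was taken as CCAAT and the TATA box as TATAAA. Matches of different motifs may overlap, and a match is a description of the letters only. The SP1 box was in 65.1% of members with a 5′ peak, 25.4% of wide members and 1 of the 10 without an interval, against 43.7% of all coding promoters and 65.5% of those with a 5′ peak. The GC content of the windows had the same order, and its part in these shares was not tested. The ETS site was in 35.0% of members, against 29.3% of Zfp genes outside clusters and 17.7% of all coding promoters. It was in 46.5% of members with a 5′ peak and 31.7% of wide ones, and in 28.6% of all coding promoters with a 5′ peak.

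Of the other motifs, 4 were found in few members. The NRF1 site was in 13 members (7.22%, against 2.13% of all coding promoters). It was in 11 of the 126 wide members (8.73%), 1 of the 43 with a 5′ peak (2.33%) and 1 of the 10 without an interval. Wide members are 70.0% of all members, and these counts are too small to compare the classes. The ZNF143 site was in 6 (3.33%, against 0.490%), the CRE in 7 (3.89%, against 2.31%) and the YY1 site in 4 (2.22%, against 1.84%). The TATA box was in 8.33% of members and 13.5% of all coding promoters. The NF-Y box was the most frequent of all, in 67 members (37.2%, against 37.6%). It is also the shortest of the 8 motifs, and a shorter motif matches more often, so its rank is description only. No test was made of any of these shares.

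Wide intervals and peaks were listed in similar shares at members whose protein matched a KRAB A box pattern and at those without a match. The pattern is exact, so a protein without a match may still hold a KRAB domain. Whether genes with and without the domain differ was therefore not tested. A KRAB A box pattern was found in 102 of the 180 translated members, of which 72 were wide (70.6%, 61.1 to 78.6%) and 23 had a 5′ peak. Of the 78 without the pattern, 54 were wide (69.2%, 58.3 to 78.4%) and 20 had a 5′ peak. Members with 10 or more fingers were wide in 69.7% of 119 cases and those with 3 to 9 in 71.9% of 57. The median number of fingers was 11 in wide members, 12 in those with a peak and 11.5 in those with none. Outside clusters 40.0% of 40 Zfp genes with the pattern and 28.2% of 117 without it were wide, with Wilson intervals of 26.3 to 55.4% and 20.8 to 37.0% that overlap. The median gene length was 13.6 kb in members and 17.1 kb in Zfp genes outside clusters.

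No member lay close to the 100 kb limit that defines a cluster. The members just inside it were Zfp428 and Zfp575 (80.6 kb apart), Zfp628 (80.9 kb from Zfp579) and Zfp120 and Zfp937 (81.4 kb apart), and all 5 were wide. Just outside it were Zfp263 at 103 kb, with a 5′ peak, Zfp72 and Zfp825 at 106 kb from each other, with no interval and a wide one, Zfp820 at 112 kb, with a peak, and Zfp605 at 114 kb, which was wide.

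A list of 21 genes for KRAB corepression and H3K9 heterochromatin, which also held the zinc finger genes Zfp57 and Zfp809, was looked up. Of these 21 genes, 20 were found in the annotation. Wide intervals covered 9 of them. These were Trim28, the KRAB corepressor itself, Atf7ip, a partner of SETDB1, Cbx1, which encodes the heterochromatin protein HP1β, the H3K9 methyltransferase gene Ehmt2, the DNA methylation genes Dnmt1 and Uhrf1, the histone chaperone gene Daxx, the remodeller gene Chd4 and the clustered gene Zfp809. A peak lay at the 5′ end of 7, namely Setdb2, Atf7ip2, Cbx3 (HP1γ), Cbx5 (HP1α), Suv39h2, Morc2a and Zfp57, a regulator of imprints outside the clusters. The peak at Morc2a, chr11:3536588-3551414, was the widest of the whole list at 14827 bp. Setdb1, Ehmt1, Mphosph8 and Pphln1 had no interval. The share of 9 of 20 with a wide interval stands beside 23.6% of all coding genes, and that of 7 with a 5′ peak beside 32.2%. Of the 9, Zfp809 is itself a clustered member. Trim28, Dnmt1, Ehmt2 and Daxx lay in wide intervals that also held clustered members, so the 9 are not all separate from the intervals described above.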

How the data were processed

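ChIP-seq was performed on 4 samples in 2 groups, Rif1FH (n = 2) and Rif1WT (n = 2). As the methods of the study and the submitters' processing notes give it, the authors trimmed reads with Trim Galore 0.6.4, aligned them to mm9 with Bowtie 1.0.0 keeping unique alignments, called narrow and broad peaks with MACS2 2.2.6 and RADs with EDD, and merged what both Rif1FH replicates shared with bedtools 2.27.1. The deposited file holds the start and end positions of these intervals and no score, p-value or value per sample, so depth is unknown. Unique alignment drops repeated sequence, and a peak that overlapped a RAD was not kept as a peak.

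Intervals were split at 50 kb. Overlap was at least 1 bp, and coordinates count from 1. Clusters were joined by single linkage of 5′ ends within 100 kb. Shares carry 95% Wilson intervals. Members and lists were chosen with earlier results of these data known. Named were every cluster of 5 or more, the 15 members with the nearest and the 5 with the widest 5′ peak, members with 2 peaks over the gene, wide members by cluster (up to 3, or all of a small cluster), members without an interval near a clustered peak, and the corepressor list. Fingers (C, 2 to 4 residues, C, 12 residues, H, 3 to 5 residues, H) and the KRAB A box (D V, any 3 residues, F, S or T, any 2 to 3 residues, E W) were searched in the translated longest coding transcript of each gene. A promoter window that the rule for named genes also called for is not reported here. Promoter windows were aligned in pairs, end to end with free end gaps. No test was run, since the list gives no values per sample. Overlap, clustering and intervals were tested on simulated data with no wrong answer. Alternatives were other windows, cluster distances, symbols, widths and midpoints. Python 3.11.15, numpy 2.4.6, scipy 1.17.1, numba 0.67.0, biopython 1.88 and matplotlib 3.10.9 were used.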

Additional observations from a re-analysis of the deposited data

How the results depend on the processing

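The 4 shares of clustered genes were recomputed in 44 comparisons, of which 31 were planned and 13 were chosen after seeing the data. In 38 the share stayed inside the Wilson interval of the value reported. The share with a 5′ peak ran from 20 to 79.6%, that in wide intervals from 59.3 to 71.1% and that with neither from 4.44 to 9.44%. The other 6 comparisons moved it. Without chromosome 7, the 5′ peak share was 31.9% (47.8% outside clusters), the share with a peak over the gene 31.9% and the wide share 59.3% (27.5% outside clusters). Chromosome 7 held 59 of the 126 wide members, and the cause was not tested beyond this. Over genes without a wide interval, both the share with a 5′ peak and that with a peak over the gene were 79.6%, which follows from the smaller denominator. With the midpoint of the peak required inside the gene, the share with a peak over the gene was 15% (27 of 180), as peaks centred outside the gene then no longer count. Clustered genes had the higher wide share and the lower 5′ peak share than Zfp genes outside clusters in every alternative except over genes without a wide interval. No paired analysis was possible because both tagged replicates stand in 1 combined list of positions. For the same reason no replicate could be left out, and with no score a stricter calling threshold could not be applied. Depth limits what the list can hold, and it is unknown.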

Other observations

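KRAB zinc finger genes also exist under names other than Zfp. Translation of the coding transcripts gave 93 autosomal genes under other names with the KRAB pattern and 3 or more fingers. Of these 40 were in wide intervals (43.0%), 12 had a peak at the 5′ end (12.9%) and 41 had neither (44.1%). The shares were 70.3%, 22.8% and 5.94% in the 101 clustered Zfp genes with the same features. The 93 genes were not selected for lying in clusters. Of the 38 Zfp genes outside clusters with these features, 42.1% were wide and 36.8% had a 5′ peak. Over all autosomal coding genes 23.6% were wide, 32.2% had a 5′ peak and 39.1% had neither. Chromosome 2 held 40 of the 93, of which 18 were wide, none had a peak and 22 had no interval. Chromosome 4 held 16 (7 wide, 1 with a peak, 8 with none) and chromosome 7 held 15 (4, 6 and 5).

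The sequence around these genes was mostly repeated. The share of 31-base words around the 5′ end found a single time in the genome had a median of 31.3% in the 93 genes and of 96.3% in the 101 clustered Zfp genes. It was 0% in those with no interval, 31.1% in the 40 wide ones and 83.6% in those with a 5′ peak, and 34 of the 40 wide genes had less than 75%. Only 18 of the 93 had 75% or more, of which 6 were wide, 7 had a 5′ peak and 5 had no interval. The part of repeated sequence in the shares of the 93 genes was not tested.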
